A study of Arabidopsis thaliana with 72 samples.

Results

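Phosphate starvation response genes are the transcripts that plants turn up when their cells run short of phosphate. A set of 10 such genes of Arabidopsis thaliana was chosen by locus identifier, and each was followed in leaves under alkaline treatments. The set holds SPX1 (AT5G20150), SPX2 (AT2G26660), SPX3 (AT2G45130), SQD1 (AT4G33030), SQD2 (AT5G01220), MGD2 (AT5G20410), MGD3 (AT2G11810), PS2 (AT1G73010), GDPD1 (AT3G02040) and PHO1;H1 (AT1G68740). Of the 10 genes, 9 were among the 18603 genes measured, and SPX3 was not analysed here. The rule uses locus identifiers and no measured value, although the set was proposed with earlier results of these data known.

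The study exposed 15-day-old hydroponic plants of 2 natural demes, the carbonate-sensitive T6(c-) and the carbonate-tolerant A1(c+), to alkaline solutions, and sequenced leaf RNA at 3 h and 48 h. It asked how the demes differ in their early shoot response to bicarbonate and to high pH without it. The 12 groups were bic (10 mM NaHCO3, pH 8.3), pH 8.3 and the control pH 5.9, each in T6(c-) and in A1(c+) at each time. All groups grew in the same diluted Hoagland nutrient solution, which supplies phosphate, with MES and BTP as buffers in proportions set by the pH. Each group had 2 columns of values, read as biological replicates from the last digit of their label, and each column joined 3 technical replicates, 72 libraries in all. Leaves of several plants were pooled per line and treatment, so a column is called a library below, and p-values measure the spread between these pooled libraries, which may be technical. In leaves measured as a whole, fewer cells of a type and less RNA per cell cannot be told apart.

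As background, the transcription factor PHR1 binds a short palindromic promoter element, the P1BS motif, and switches on genes for taking up, releasing and saving phosphate. SPX proteins sense the cell's phosphate state through inositol pyrophosphates and hold PHR1 back when phosphate is ample. In starved leaves, membrane phospholipids are broken down for their phosphate and replaced by galactolipids, which MGD2 and MGD3 make, and by a sulfolipid, which SQD1 and SQD2 make.

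The motif GNATATNC, whose reverse complement has the same form, was searched on both strands from 250 bases before to 50 bases after the start of each gene in the RefSeq annotation of TAIR10.1. It occurred in 6 of the 10 genes (60.0%: GDPD1, MGD2, PS2, SPX1, SPX3 and SQD1), against 1716 of 27443 protein-coding genes (6.25%). In the 1000 bases before the start the shares were 60.0% of the set and 20.25% of protein-coding genes. For 5 of the measured genes the site nearest before the start is shown with flanking bases, and for GDPD1 also the second in the shorter window, because the expression of these genes is described below. GDPD1, MGD2 and PS2 hold 4 further sites in the longer window that are not shown. The motif is in capitals and each run is given 5′ to 3′ on the gene's own strand:
GDPD1, 63 bases before the start, chr3:350040-350099, minus strand: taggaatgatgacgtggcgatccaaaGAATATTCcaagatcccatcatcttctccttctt
GDPD1, 127 bases before the start, chr3:350104-350163, minus strand: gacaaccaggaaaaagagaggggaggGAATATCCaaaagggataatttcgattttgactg
PS2, 217 bases before the start, chr1:27466532-27466591, minus strand: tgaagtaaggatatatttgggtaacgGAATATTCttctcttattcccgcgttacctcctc
MGD2, 14 bases before the start, chr5:6896423-6896462, plus strand: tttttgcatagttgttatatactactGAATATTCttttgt
SPX1, 735 bases before the start, chr5:6801521-6801580, plus strand: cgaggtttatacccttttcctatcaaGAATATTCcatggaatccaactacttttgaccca
SQD2, 340 bases before the start, chr5:90424-90483, minus strand: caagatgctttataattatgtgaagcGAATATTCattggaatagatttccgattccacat
In the shorter window, SPX1 and SQD1 held their match after the start, and MGD3, PHO1;H1, SPX2 and SQD2 held none. A match is a stretch of letters and not a measured binding site.

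The libraries held 63.51 to 120.6 M reads, with a median of 99.68 M, and every gene is given below in reads per 1000000 reads of its library (CPM). All 6 leaf markers, among them RBCS1A, LHCB1.1 and CA1, were detected in every library, with summed levels of 15972 to 56309 CPM. The deme of each treated library was read from 186 genes whose pH 5.9 levels in the demes lay over 5 log2 units apart without overlap. In this check 2 libraries stood apart. At 47.8% of these genes the library that carries the label A1(c+) bic 3 h replicate 2 was nearer its own deme. For the library labelled T6(c-) pH 8.3 48 h replicate 1 the share was 53.2%. The other 13 treated libraries ranged from 61.8% to 100%, with the lowest value in T6(c-) bic 48 h replicate 1. The library labelled A1(c+) pH 8.3 48 h replicate 1 lay within that range of both demes at 84.4%. It was below the A1(c+) libraries not in doubt, which had 96.8% to 100%. It is counted as in doubt because, like both that stood apart, it held only sequencing libraries whose names carry a prefix A. Results are therefore given with and without the 3 libraries in doubt, and without them 3 groups keep 1 library each, whose spread is assumed to be like that of the other groups. In every pair of CPM values below, replicate 1 comes first. The first pH 8.3 value at 48 h in each deme and the second bic value of A1(c+) at 3 h are thus from libraries in doubt. Another point concerns the T6(c-) controls, whose replicates were unlike all other pairs. At 3 h their median index of dispersion (1 if only sampling varies) was 1.65 and at 48 h it was 2.04, whereas the remaining 10 pairs had values of 9.61 to 160. Sampling noise alone does not give these values, but separate preparations of 1 pool could. The index therefore cannot show whether the replicates came from separate plants, which is not known. Each pair was kept as 2 replicates as labelled, and p-values against these controls rest on that. Counts of calls that end when each of these pairs is averaged into 1 sample, a choice made after their closeness was seen, are given beside the result.

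**Figure D1:**
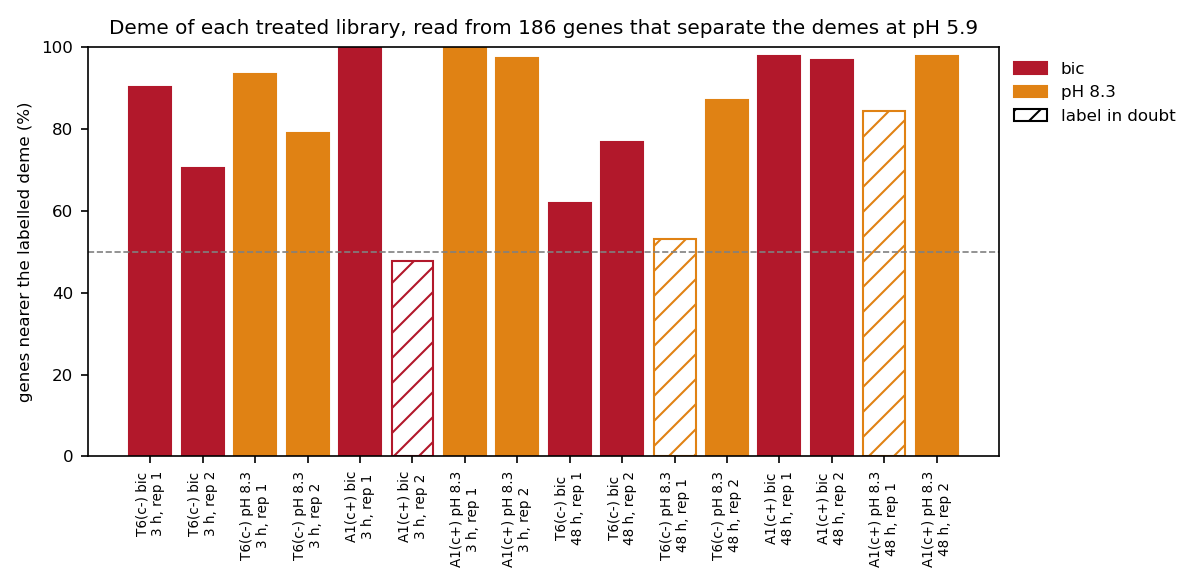
Percentage of 186 deme-separating genes at which each treated library was nearer the pH 5.9 libraries of its labelled deme, with the dashed line at 50% and the 3 libraries in doubt marked. The second bic library of A1(c+) at 3 h and the first pH 8.3 library of T6(c-) at 48 h lie near the line, at 47.8% and 53.2%.

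With all libraries in the fit, bic at 48 h in T6(c-) was the only treatment against pH 5.9 in which any of the 9 genes was called, and 3 were, beside 18.9% of all genes. MGD3, PS2 and GDPD1 rose 13.6-fold, 5.54-fold and 4.05-fold. High pH without bicarbonate called none of the 9 genes in either deme at either time. Its calls were also rare across the whole gene list, with shares for T6(c-) of 0.0% (3 h) and 0.156% (48 h). For A1(c+) the shares were 2.13% (3 h) and 1.03% (48 h). With so few calls, finding none among 9 genes does not set them apart from other genes. A gene counts as called when limma's adjusted p is under 0.05 and its log2 fold change lies above 1 or below -1, with limma fitted to all 18603 genes and 12 groups. The treatments within a deme and time share their pH 5.9 libraries, so their results are not independent of each other. GDPD1 is the least firm of the calls, and PS2 was also lost without any 1 of the libraries compared, as described with their values. With the T6(c-) pH 5.9 pairs averaged, MGD3 alone of the 9 genes was called, beside 12.6% of all genes.

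**Figure D2:**
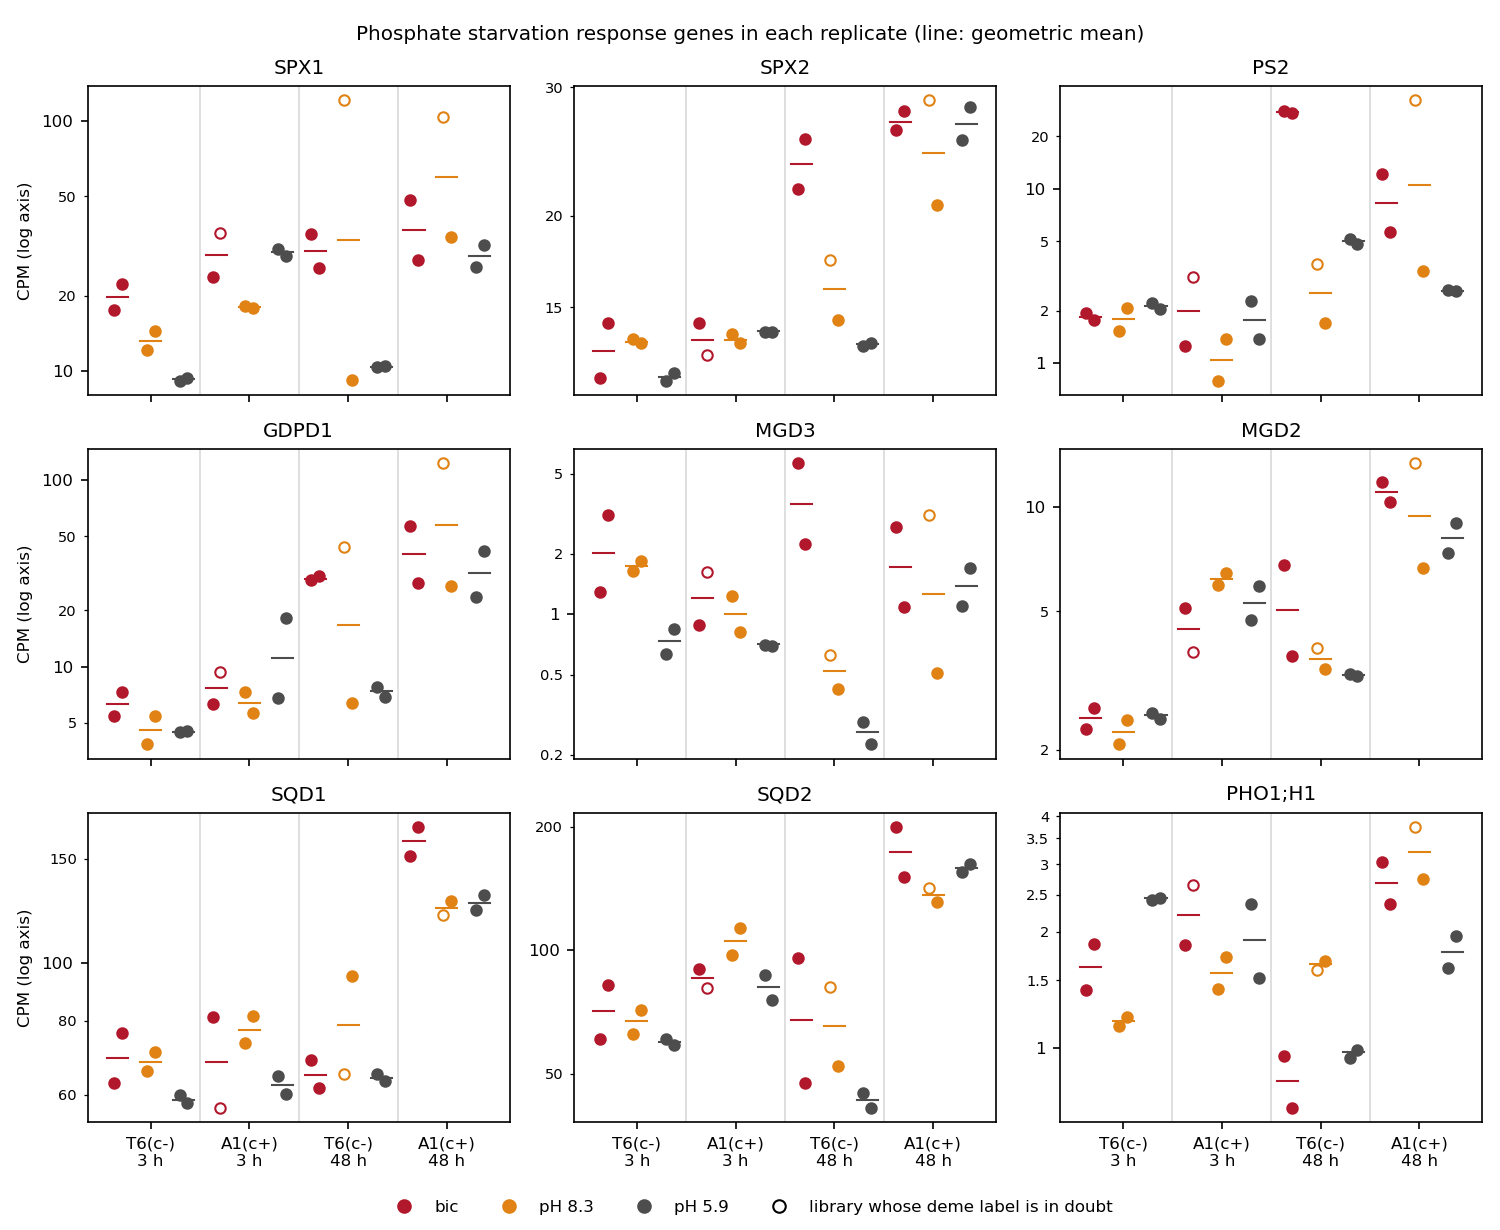
CPM of the 9 genes in each of the 24 libraries on a log axis, with T6(c-) left of A1(c+) at each time, colours for bic, pH 8.3 and pH 5.9, and a line at the geometric mean of each group. PS2 lies at 28.1 and 27.4 CPM in T6(c-) bic 48 h, while the libraries in doubt hold the highest SPX1, PS2 and GDPD1 values.

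Among the regulators, SPX1 had 35.4 and 25.9 CPM in T6(c-) under bic at 48 h, 121.2 and 9.23 CPM at pH 8.3, and 10.4 and 10.5 CPM at pH 5.9. The A1(c+) libraries at 48 h had 48.3 and 27.9 CPM under bic, 103.6 and 34.3 CPM at pH 8.3, and 26 and 32 CPM at pH 5.9. The values of 121.2 and 103.6 CPM, the highest of all 24, belong to libraries in doubt, and without them SPX1 spanned 5.3-fold over the libraries instead of 13.3-fold. Under bic at 48 h the T6(c-) libraries lay above both pH 5.9 libraries, whereas those of A1(c+) overlapped with theirs. The log2 fold change in T6(c-) was 1.54 ± 0.79 (SE, adjusted p = 0.131) and was not called. Leaving out the libraries in doubt, none of which enters this fold change, lowered its standard error to 0.23 and gave a call (adjusted p = 0.000149).

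SPX1 at 3 h had 17.5 and 22.3 CPM in T6(c-) under bic, 12.1 and 14.4 CPM at pH 8.3, and 9.12 and 9.41 CPM at pH 5.9. The bic libraries were the highest of this deme and time, with a log2 fold change over pH 5.9 of 1.09 ± 0.79 (adjusted p = 0.738, and 0.0241 without the libraries in doubt). In A1(c+) at 3 h SPX1 had 23.8 and 35.7 CPM under bic, the second from a library in doubt, 18.2 and 17.9 CPM at pH 8.3, and 30.8 and 28.8 CPM at pH 5.9. Here pH 8.3 lay below pH 5.9, at a log2 fold change of -0.72 that was not called. By geometric mean the 12 groups ran from 59.7 CPM in A1(c+) pH 8.3 48 h down to 9.27 CPM in T6(c-) pH 5.9 3 h, and 7 of the 11 pairs of neighbours in that order overlapped.

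SPX2, a close relative of SPX1 with the same inhibitory role, moved within narrow limits. At 48 h it had 21.8 and 25.5 CPM in T6(c-) under bic, 17.4 and 14.4 CPM at pH 8.3, and 13.3 and 13.4 CPM at pH 5.9. For A1(c+) at 48 h the values were 26.2 and 27.8 CPM under bic, 28.8 and 20.7 CPM at pH 8.3, and 25.4 and 28.2 CPM at pH 5.9. SPX2 under bic in T6(c-) thus lay above its pH 5.9 libraries and below both A1(c+) bic libraries. Its log2 fold change there was 0.82 ± 0.15 (adjusted p = 0.000691), which passed the p threshold but not the fold limit, and with TMM scaling it was 0.52. In A1(c+) it was 0.01. The difference between the demes' responses was 0.81 ± 0.21 (adjusted p = 0.0347, and 0.169 with the T6(c-) pH 5.9 pairs averaged). At 3 h all 12 libraries lay between 11.9 and 14.3 CPM. At that time pH 8.3 lay above pH 5.9 without overlap in T6(c-), at 13.6 and 13.4 against 11.9 and 12.2 CPM, and below it in A1(c+), at 13.8 and 13.4 against 13.9 and 13.9 CPM, while bic overlapped with pH 5.9 in both demes. None of these differences was called.

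PS2, a phosphatase whose transcript is known to rise in phosphate-starved plants, had 28.1 and 27.4 CPM in T6(c-) under bic at 48 h, 3.69 and 1.7 CPM at pH 8.3, and 5.19 and 4.82 CPM at pH 5.9. The bic libraries were close to each other and well above the other 4 libraries of this deme and time, and the pH 8.3 libraries both lay below pH 5.9. The rise under bic was 2.47 ± 0.76 on the log2 scale (adjusted p = 0.0176). It was 3.47 ± 0.76 over pH 8.3 (adjusted p = 0.0024). The call against pH 5.9 was lost when any one of the 4 libraries compared was left out, with adjusted p between 0.0666 and 0.0801 and log2 fold changes of 2.42 to 2.52, and when the pH 5.9 pairs were averaged (adjusted p = 0.0943). The adjusted p was 0.000121 without the libraries in doubt.

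PS2 in A1(c+) at 48 h had 12.2 and 5.65 CPM under bic, 32.3 and 3.38 CPM at pH 8.3, and 2.62 and 2.59 CPM at pH 5.9. The value of 32.3 CPM is from the library in doubt and is the highest PS2 level of all 24. Both bic libraries lay above both pH 5.9 libraries, at a log2 fold change of 1.67 ± 0.76 (adjusted p = 0.239), and the gene was called without the libraries in doubt (adjusted p = 0.0135). Against pH 8.3 the sign of the bic difference in A1(c+) rested on that library, with a log2 fold change of -0.33 with it and 1.30 without the 3 libraries (adjusted p = 0.799 and 0.0373). At 3 h PS2 was between 0.79 and 3.13 CPM in all 12 libraries, the highest being the library labelled A1(c+) bic replicate 2, and no comparison called it.

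Among the genes of lipid recycling, GDPD1 codes for a glycerophosphodiester phosphodiesterase that splits deacylated phospholipids into glycerol-3-phosphate and an alcohol. It had 29.0 and 30.5 CPM in T6(c-) under bic at 48 h, 43.6 and 6.38 CPM at pH 8.3, and 7.8 and 6.9 CPM at pH 5.9. The A1(c+) libraries at 48 h had 57.0 and 28.2 CPM under bic, 122.7 and 27.1 CPM at pH 8.3, and 23.7 and 41.8 CPM at pH 5.9. The bic libraries of T6(c-) stood above their controls, and those of A1(c+) overlapped with theirs. Both high pH 8.3 values, 43.6 and 122.7 CPM, are from libraries in doubt.

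The rise of GDPD1 under bic in T6(c-) at 48 h was 2.02 ± 0.77 on the log2 scale (adjusted p = 0.0484), just inside the threshold. It was called in 8 of 24 fits that each left out 1 library, and it was not called with TMM scaling (1.72, adjusted p = 0.0741), with the replicate number as a block (adjusted p = 0.0553), with voom weights (adjusted p = 0.076) or with the pH 5.9 pairs averaged (adjusted p = 0.172). Leaving out the 3 libraries in doubt gave an adjusted p of 0.00209. GDPD1 overlaps AT3G02030 on the opposite strand by 681 bases, and the libraries were unstranded, so reads from the overlap cannot be told apart. AT3G02030 itself had 8.93 and 7.1 CPM under bic and 7.65 and 6.83 CPM at pH 5.9 in T6(c-) at 48 h. At 3 h GDPD1 had 3.82 to 18.1 CPM, with the highest value in A1(c+) pH 5.9 replicate 2.

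MGD3 had 5.61 and 2.23 CPM in T6(c-) under bic at 48 h, 0.625 and 0.425 CPM at pH 8.3, and 0.291 and 0.225 CPM at pH 5.9. The control values rest on 29 and 21 reads and the bic values on 524 and 230 reads. The groups were in the order bic, pH 8.3, pH 5.9 with no overlap. MGD3 rose by 3.76 ± 0.73 on the log2 scale over pH 5.9 (adjusted p = 0.00103) and by 2.76 ± 0.73 over pH 8.3 (adjusted p = 0.00754). The call against pH 5.9 was kept in all 24 fits that each left out 1 library and with the pH 5.9 pairs averaged (adjusted p = 0.0154), and the call against pH 8.3 was lost without T6(c-) bic 48 h replicate 1 (2.10, adjusted p = 0.0791).

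MGD3 in A1(c+) at 48 h had 2.7 and 1.08 CPM under bic, 3.12 and 0.509 CPM at pH 8.3, and 1.1 and 1.7 CPM at pH 5.9. These groups overlapped, and the log2 fold change under bic was 0.32. The difference between the demes' responses was 3.44 ± 1.03 (adjusted p = 0.0576, and 0.00816 without the libraries in doubt). At 3 h MGD3 had 1.29 and 3.12 CPM in T6(c-) under bic, 1.64 and 1.84 CPM at pH 8.3, and 0.636 and 0.847 CPM at pH 5.9. Both treatments lay above pH 5.9 without overlap, with log2 fold changes of 1.45 and 1.24 that were not called (adjusted p = 0.619 and 0.609). At 3 h A1(c+) had 0.698 to 1.62 CPM, with the highest value in the library in doubt.

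MGD2, the other galactolipid synthase of this class, had 6.77 and 3.71 CPM in T6(c-) under bic at 48 h, 3.92 and 3.42 CPM at pH 8.3, and 3.3 and 3.25 CPM at pH 5.9. At 48 h A1(c+) had 11.8 and 10.3 CPM under bic, 13.3 and 6.67 CPM at pH 8.3, and 7.34 and 8.98 CPM at pH 5.9. The value of 13.3 CPM, the highest MGD2 level of all libraries, is from a library in doubt. The bic libraries of each deme lay above its pH 5.9 libraries, by log2 fold changes of 0.61 in T6(c-) and 0.44 in A1(c+), neither of them called (adjusted p = 0.121 and 0.443). At 3 h T6(c-) lay at 2.07 to 2.64 CPM and A1(c+) at 3.83 to 6.44 CPM, without overlap between the demes.

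SQD1 and SQD2 carry out the last steps of sulfolipid synthesis, SQD1 by making the sulfur-bearing sugar and SQD2 by joining it to the lipid. SQD2 had 96.0 and 47.6 CPM in T6(c-) under bic at 48 h, 81.3 and 52.4 CPM at pH 8.3, and 44.9 and 41.3 CPM at pH 5.9, and its log2 fold change under bic was 0.65 (adjusted p = 0.0652). SQD1 had 68.7 and 61.5 CPM under bic, 65.0 and 95.3 CPM at pH 8.3, and 65.0 and 63.4 CPM at pH 5.9 in the same deme and time, and its log2 fold change under bic was 0.02. In T6(c-) bic libraries at 48 h SQD2 was thus split between 1 library above the other T6(c-) groups and 1 near them, and SQD1 did not separate from pH 5.9. The higher library, replicate 1, was nearer its own deme at 61.8% of genes in the check of demes. Whether that bears on the split was not tested. In A1(c+) at 48 h SQD1 had 151.6 and 169.7 CPM under bic, 120.7 and 127.1 CPM at pH 8.3, and 123.1 and 130.1 CPM at pH 5.9. SQD2 had 200 and 150.7 CPM under bic, 142.2 and 131.0 CPM at pH 8.3, and 155.6 and 162.2 CPM at pH 5.9. SQD1 under bic lay above the other A1(c+) libraries, by a log2 fold change of 0.34 over pH 5.9 that was not called (adjusted p = 0.294). At 3 h SQD1 ranged from 57.0 to 81.3 CPM and SQD2 from 58.7 to 113 CPM over both demes.

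PHO1;H1 is a homologue of the phosphate exporter PHO1 that helps load phosphate into the xylem. Of the 9 genes it alone had a negative log2 fold change under bic against pH 5.9 in T6(c-) at 48 h, at -0.24. It had 0.952 and 0.698 CPM in T6(c-) under bic at 48 h, 1.59 and 1.68 CPM at pH 8.3, and 0.943 and 0.986 CPM at pH 5.9. The bic libraries lay below both pH 8.3 libraries and overlapped with pH 5.9. PHO1;H1 fell by 1.00 ± 0.29 on the log2 scale under bic against pH 8.3 (adjusted p = 0.0131), a call lost without T6(c-) pH 8.3 48 h replicate 2 (-0.96, adjusted p = 0.0505) or T6(c-) bic 48 h replicate 2 (-0.78, adjusted p = 0.12). At 48 h A1(c+) had 3.04 and 2.36 CPM under bic, 3.75 and 2.75 CPM at pH 8.3, and 1.61 and 1.95 CPM at pH 5.9. Both treatments lay above pH 5.9 there, by log2 fold changes of 0.60 and 0.86 that were not called (adjusted p = 0.276 and 0.158). The higher pH 8.3 value, 3.75 CPM, is from a library in doubt. At 3 h in T6(c-) it had 1.41 and 1.86 CPM under bic, 1.14 and 1.2 CPM at pH 8.3, and 2.42 and 2.45 CPM at pH 5.9. The log2 fold change at pH 8.3 was -1.06 ± 0.29 (adjusted p = 0.25), and it was called without the libraries in doubt (adjusted p = 0.0376).

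**Figure D3:**
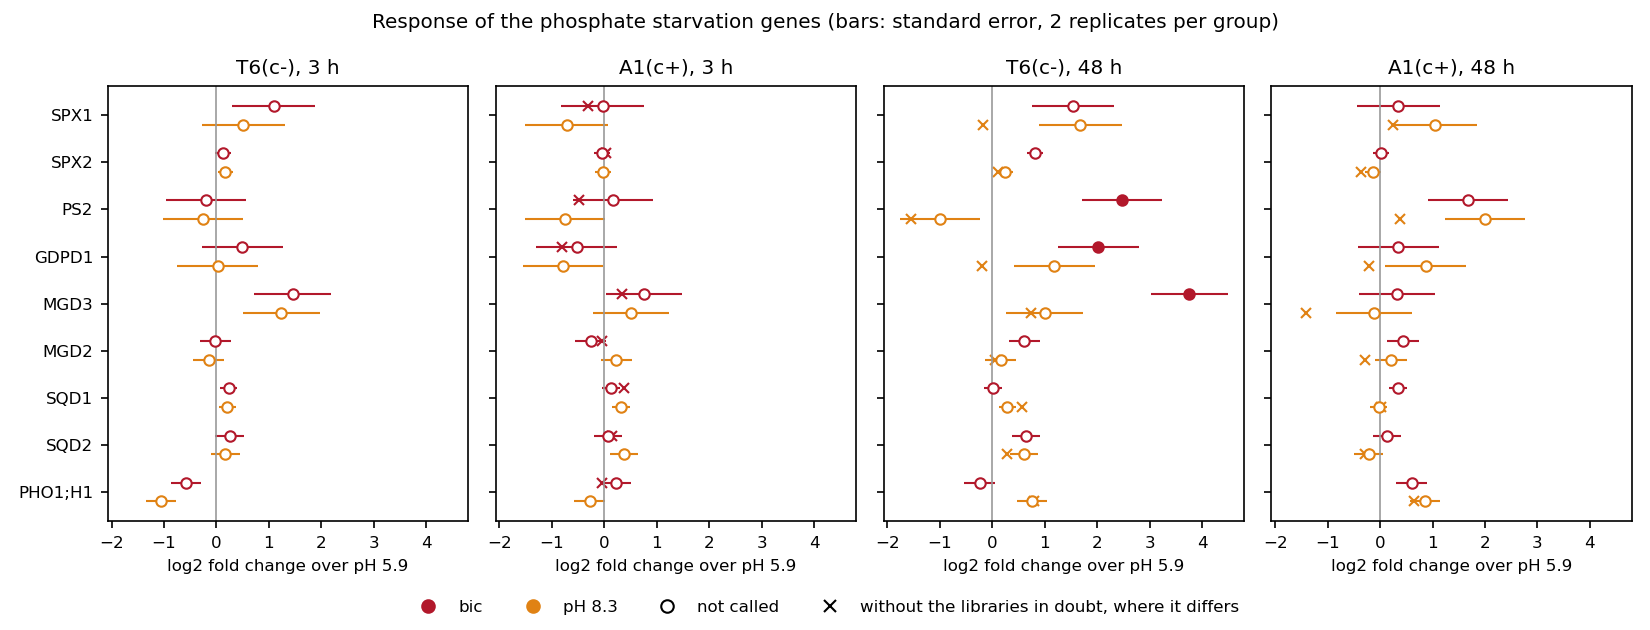
Log2 fold change of each of the 9 genes over pH 5.9 under bic and at pH 8.3, in T6(c-) and A1(c+) at 3 h and 48 h, with bars for the standard error and filled points for calls. In T6(c-) at 48 h MGD3, PS2 and GDPD1 are called under bic, at 3.76, 2.47 and 2.02.

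Counted as a set at 48 h in T6(c-), 3 of the 9 genes were called higher under bic and none lower, where 18.9% of all genes were called, 13.8% higher and 5.14% lower. The median log2 fold change was 0.82 for the 9 genes and 0.30 for all genes. In 7 of the 9 genes the bic and pH 5.9 libraries did not overlap, which was so in 83.6% of all genes. Leaving out the libraries in doubt, 4 of 9 were called (22.9% of all genes), and with the pH 5.9 pairs averaged 1 was, MGD3 (12.6% of all genes). The median of all genes was 0.01 with TMM scaling, and the share of calls that were higher was 72.8% as deposited, 45.5% with TMM and 44.1% with quantile normalization. With TMM the log2 fold changes were 3.46 for MGD3 and 2.17 for PS2. The 6 leaf markers moved with this comparison, since all were called lower and their sum was 21729 and 15972 CPM under bic against 55293 and 55702 CPM at pH 5.9. The sum of 5 senescence markers was 666.1 and 1479.4 CPM against 201.0 and 209.9 CPM, with 1 of 5 called higher (NYE1, 1.54). Their part in the results on phosphate genes was not tested.

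At pH 8.3 in T6(c-) at 48 h 0 of the 9 genes were called by limma, with 3 at an unadjusted p under 0.05 and 0 called with voom weights, and 0.156% of all genes were called. The median of the 9 genes was 0.60 against 0.05 for all genes, and 0.11 against -0.02 without the libraries in doubt. SPX1 and GDPD1 had log2 fold changes of 1.68 and 1.18 (adjusted p = 0.323 and 0.489), and of -0.18 and -0.20 without those libraries. The positive values thus rested on the library labelled T6(c-) pH 8.3 48 h replicate 1. For bic against pH 8.3 in T6(c-) at 48 h, 3 of 9 were called, PS2 and MGD3 higher and PHO1;H1 lower, beside 20.4% of all genes (14.2% higher and 6.28% lower). Of the markers, 5 of 6 leaf genes were called lower in this comparison and 4 of 5 senescence genes higher (SAG13, NAC092, ANAC029 and NYE1, by 5.95, 4.87, 2.71 and 2.00), with senescence sums of 666.1 and 1479.4 CPM under bic against 98.7 and 79.5 CPM at pH 8.3. Their part in the results was not tested. With the libraries in doubt left out, 5 of 9 were called beside 23.6% of all genes, with SPX1 at 1.71 (adjusted p = 0.000534) and GDPD1 at 2.22 (adjusted p = 0.0053) added, while SPX1 was at -0.14 with those libraries in.

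Under bic against pH 5.9 in A1(c+) at 48 h 0 of the 9 genes were called by limma, with 1 at an unadjusted p under 0.05 and 0 called with voom weights, beside 0.333% of all genes. Their median was 0.35 against 0.18 for all genes. PS2 alone was called without the libraries in doubt (3.2% of all genes). At pH 8.3 against pH 5.9 in A1(c+) at 48 h 0 of 9 were called, with 2 at an unadjusted p under 0.05, beside 1.03% of all genes. PS2 and SPX1 had log2 fold changes of 2.00 and 1.05 there (adjusted p = 0.192 and 0.521), and of 0.38 and 0.25 without the libraries in doubt. For bic against pH 8.3 in A1(c+) at 48 h, 0 of 9 were called, with 1 at an unadjusted p under 0.05, beside 4.59% of all genes, and 1 of 9, PS2, without the libraries in doubt (11.7% of all genes). Voom weights called none of the 9 genes in these last 2 comparisons with all libraries in.

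At 3 h no treatment comparison called any of the 9 genes. Under bic against pH 5.9 the count was 0 of 9 in T6(c-), where 0.0% of all genes were called and 1615 of them had an unadjusted p under 0.05, and 0 of 9 in A1(c+), where 0.0161% were called. At pH 8.3 against pH 5.9 it was 0 of 9 in T6(c-) (0.0% of all genes called, 1808 at an unadjusted p under 0.05) and 0 of 9 in A1(c+) (2.13%). For bic against pH 8.3 it was 0 of 9 in T6(c-) (0.0% of all genes called, 954 at an unadjusted p under 0.05) and 0 of 9 in A1(c+) (0.0215%). Across these 6 comparisons 1 of the 9 genes had an unadjusted p under 0.05, PHO1;H1 at pH 8.3 in T6(c-), and voom weights called none. The medians of the 9 genes in T6(c-) were 0.23 under bic and 0.17 at pH 8.3, against -0.07 and -0.01 for all genes. Without the libraries in doubt, which lie outside these T6(c-) groups and enter only the shared spread, 1 of 9 was called under bic in T6(c-) (SPX1, 1.6% of all genes) and 1 at pH 8.3 (PHO1;H1, 1.7%).

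The difference between the demes' responses was tested itself. At 48 h under bic 0 of the 9 genes were called, beside 4.15% of all genes, with 2 at an unadjusted p under 0.05 (MGD3 and SPX2). MGD3, GDPD1 and SPX1 lay beyond the fold limit at 3.44, 1.67 and 1.19 but missed the p threshold, SPX2 passed the p threshold at 0.81, as did 7.37% of all genes, and the median of the 9 genes was 0.80 against 0.10 for all genes. Leaving out the libraries in doubt, 2 of 9 were called, MGD3 at 3.44 and SPX1 at 1.19 (adjusted p = 0.0196), beside 10.9% of all genes. At pH 8.3 and 48 h 0 of 9 were called, with 2 at an unadjusted p under 0.05, beside 0.134% of all genes, and PS2 had the value farthest from 0, at -3.00 ± 1.07 (adjusted p = 0.274). That value rested on single libraries, since it was -1.93 without the libraries in doubt, -1.37 without A1(c+) pH 8.3 48 h replicate 1, and -4.63 and called (adjusted p = 0.00947) without replicate 2 of that group. At 3 h the counts were 0 of 9 for bic and 0 of 9 for pH 8.3, beside 0.0% of all genes in each case, with no member and 1491 and 1357 genes in all at an unadjusted p under 0.05. Voom weights called none of the 9 genes in these 4 tests.

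Before any treatment effect, the demes differed in these genes at pH 5.9. At 48 h 4 of the 9 genes were called lower in T6(c-) than in A1(c+), beside 7.65% of all genes. They were SQD2 (44.9 and 41.3 against 155.6 and 162.2 CPM, log2 fold change -1.88 ± 0.27, adjusted p = 0.00168), MGD3 (-2.39 ± 0.73, adjusted p = 0.0415), MGD2 (-1.31 ± 0.30, adjusted p = 0.0142) and SPX2 (-1.0 ± 0.15, adjusted p = 0.00227). SQD1 passed the p threshold at -0.98 (adjusted p = 0.00468). In all 9 genes the demes did not overlap, as in 74.6% of all genes, and PS2 alone was the higher in T6(c-), at 5.19 and 4.82 against 2.62 and 2.59 CPM. The median of the 9 genes was -1.31 against 0.04 for all genes. At 3 h 1 of 9 was called, MGD2 (2.55 and 2.45 against 4.73 and 5.91 CPM, -1.08 ± 0.30, adjusted p = 0.0389), beside 4.73% of all genes, and SPX1 had a log2 fold change of -1.68 ± 0.79 (adjusted p = 0.185).

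Without the libraries in doubt 6 of 9 were called at 48 h and 3 of 9 at 3 h (13.0% and 10.0% of all genes), with SPX1 and GDPD1 added at each time. When the close pairs of T6(c-) were averaged, 0 of 9 were called at either time (0.102% of all genes at 48 h and 0.0% at 3 h), with adjusted p of 0.0631 for SQD2 and 0.0661 for SPX2 at 48 h, so these counts depend on those pairs being separate samples.

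Between 3 h and 48 h at pH 5.9 the sulfolipid genes and SPX2 were higher at the later time in A1(c+). SQD1 had 123.1 and 130.1 CPM at 48 h against 64.5 and 60.2 CPM at 3 h (1.02 ± 0.17, adjusted p = 0.000886) and was the 1 of 9 genes called, beside 15.1% of all genes. SPX2 and SQD2 passed the p threshold at 0.95 and 0.96 (adjusted p = 0.000594 and 0.0148). SQD1 fell under the fold limit without A1(c+) pH 5.9 3 h replicate 2 (0.97) or 48 h replicate 2 (0.98). Without the libraries in doubt 2 of 9 were called (19.8% of all genes), with GDPD1 added at 1.51. In T6(c-) 1 of 9 was called, PHO1;H1, which had 0.943 and 0.986 CPM at 48 h against 2.42 and 2.45 CPM at 3 h (-1.33 ± 0.29, adjusted p = 0.00491), beside 9.22% of all genes. Without the libraries in doubt 3 of 9 were called in T6(c-), MGD3 at -1.50 and PS2 at 1.23 being added, beside 12.5% of all genes, and with the T6(c-) pairs averaged 0 of 9 were (1.51% of all genes). Plant age differs with the harvest, and time of day may differ too, since harvest clock times are not given. Neither can be told apart from time in treatment solution.

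Of 59 other genes of phosphate signalling, transport, scavenging and lipid recycling, 47 were measured. Under bic in T6(c-) at 48 h 17 of them were called higher and 1 lower, beside 13.8% and 5.14% of all genes, with a median of 0.82 against 0.30 for all genes. With the T6(c-) pH 5.9 pairs averaged 14 of the 47 were called. By role, 5 of 20 regulators, 3 of 9 transport genes, 3 of 6 scavenging genes and 6 of 12 lipid genes were higher, with medians of 0.85, 0.17, 1.40 and 1.05. The lower one was GDPD6, a lipid gene. The 4 called genes with the largest change were PHT1;5 and PHT1;4, which are phosphate transporters, RNS1, a secreted ribonuclease, and AT4, a non-coding RNA that sequesters the microRNA miR399.

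PHT1;5 had 12.7 and 3.56 CPM under bic against 0.161 and 0.161 CPM at pH 5.9 (5.34 ± 1.12, adjusted p = 0.00182). AT4 had 43.8 and 118.6 CPM against 7.13 and 7.78 CPM (3.27 ± 0.94, adjusted p = 0.0125). PHT1;4 and RNS1 had log2 fold changes of 3.74 and 3.64 (adjusted p = 0.00413 and 0.013). With the T6(c-) pairs averaged, AT4 and RNS1 were not called (adjusted p = 0.0762 and 0.0761). The bic libraries lay above both controls in each of these genes, which adds no support, since they were chosen by their change in the same libraries. Bic and pH 5.9 libraries did not overlap in 83.6% of all genes. The replicates of these genes under bic differed from each other by 1.88-fold to 6.3-fold. RNS1 is also known to respond to senescence and wounding.

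Under bic in A1(c+) at 48 h 0 of the 47 genes were called by limma (1 without the libraries in doubt), beside 0.333% of all genes. Of the 47, 9 had an unadjusted p under 0.05 and 0 were called with voom weights. Their median was 0.21 against 0.18 for all genes. In the test of the difference between the demes 6 of the 47 were called, beside 4.15% of all genes, all more positive in T6(c-), among them PAP17 (2.47), an acid phosphatase, PLDP2 (2.25) and PLDP1 (1.30), phospholipases D, and VPT1 (2.15), a vacuolar phosphate transporter. With the T6(c-) pH 5.9 pairs averaged 0 of the 47 were called in that test, beside 0.29% of all genes, and the lowest adjusted p of the 6 was 0.0878. For bic against pH 8.3 in T6(c-) at 48 h 18 of 47 were higher and 1 lower, beside 14.2% and 6.28% of all genes and with the marker changes given above. The largest change was in WRKY75, a transcription factor of phosphate starvation, with 10.7 and 28.7 CPM against 0.5 and 0.157 CPM (5.92 ± 1.71, adjusted p = 0.0124). Both pH 8.3 values are low, and that of 0.5 CPM is from a library in doubt. At pH 8.3 against pH 5.9 in T6(c-) at 48 h 0 of the 47 were called by limma, beside 0.156% of all genes. Of the 47, 9 had an unadjusted p under 0.05 and 0 were called with voom weights.

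**Figure D4:**
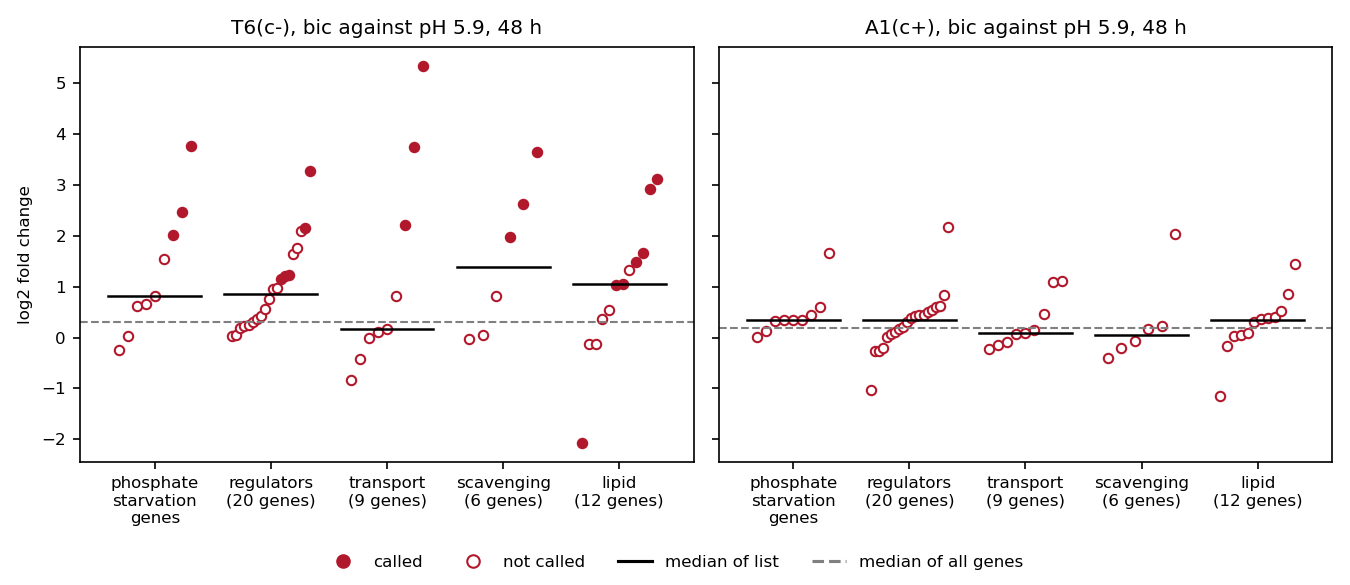
Log2 fold change under bic against pH 5.9 at 48 h of the 9 phosphate starvation response genes and of 47 genes in 4 other phosphate lists, in T6(c-) and A1(c+), with 1 point per gene and a line at each list's median. Called genes are filled, and A1(c+) has none, where 0.333% of all genes were called.

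At pH 5.9 the other phosphate genes differed between demes in both directions. PHO1, the exporter that loads phosphate into the xylem, had 21.7 and 23.6 CPM in T6(c-) against 3.64 and 4.03 CPM in A1(c+) at 48 h (2.56 ± 0.55, adjusted p = 0.0107), and was likewise higher at 3 h (2.72 ± 0.55, adjusted p = 0.0096). PAP12 and PAP17, acid phosphatases, were lower in T6(c-) at 48 h, PAP12 with 8.85 and 8.79 CPM against 37.5 and 53.7 CPM (-2.35 ± 0.39, adjusted p = 0.0037). In all, 3 of the 47 genes were higher and 3 lower at 48 h, beside 7.65% of all genes called, and 2 were higher at 3 h, beside 4.73%. With the T6(c-) pairs averaged 1 of them was called at 48 h, PAP26 (adjusted p = 0.0472), another acid phosphatase, and 0 at 3 h, with PHO1 at an adjusted p of 0.131 at 48 h and 0.135 at 3 h.

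Over the 12 group means of log2 CPM, the genes outside the set whose pattern was most like that of SPX1 were AT2G16490 (Pearson r = 0.919), AT2G31141 (0.899), WNK3 (AT3G48260, 0.898), AT5G35926 (0.896) and AT3G26890 (0.883). Within the set GDPD1 was the most like SPX1 (0.839), then MGD2 (0.745) and SPX2 (0.702), and MGD3 was the least (0.363). The 12 points share libraries, depth and the libraries in doubt. The order depended on the libraries in doubt. Without them GDPD1 was at 0.802, SQD2 at 0.787, MGD2 at 0.776, SPX2 at 0.724, SQD1 at 0.518, MGD3 at 0.468, PS2 at 0.358 and PHO1;H1 at 0.26, and the 5 genes outside the set, at 0.82 to 0.918, took places 21 to 212 among the genes ranked by likeness.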

How the data were processed

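Leaf RNA of 12 groups was sequenced as unstranded 150 bp read pairs, with 2 biological replicates per group. The authors deposited 1 table of log2 values, which was read from its values as log2 CPM with 0.5 reads added to each count and 1 to each library total, and it was not scaled further between columns. Low values gave whole reads within 0.05 in every column, and each of the 18603 genes exceeded 1 CPM in at least 6 columns. The submitters' processing notes name FastQC, Trim Galore, Salmon, DESeq2, DESeq 1.18.0 and TAIR10, while the methods name other alignment software, and which of them made the table is not given in the sources used here. The methods mention both 2 and 3 biological replicates.

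The deposited log2 values were fitted with limma 3.58.1 in R 4.3.3, with 12 group means, a variance trend, 12 residual and 2.54 prior degrees of freedom, and Benjamini-Hochberg adjustment over all genes within each of 20 comparisons. DEGs needed an adjusted p below 0.05 together with a log2 fold change above 1 or below -1. The table holds log2 values and no counts, so no count model was run. On simulated data for bic against pH 5.9 in T6(c-) at 48 h, the fit recovered 200 of 200 genes changed 4-fold among 18603, and 0 unchanged genes were called. The simulation gave every gene the same spread and held no libraries of mixed deme, so it checked the code. It does not measure power or false calls in these data. The libraries held 63.51 to 120.6 M reads, so replicates rather than depth limit precision, except at MGD3, with 21 reads in its lowest library.

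All members were named, with at most 4 called genes per comparison from the other phosphate lists and the 5 genes most like SPX1. Genes given outside this rule (GDPD6, the senescence markers, PAP26 and AT3G02030) were chosen after their values were seen. The members and lists were chosen with earlier results of these data known. Alternatives were TMM factors, quantile normalization, pseudocounts of 0.1 and 1 CPM, a mean of at least 10 CPM, no fold limit, no variance trend, only the groups compared, each time alone, a replicate block, the number of prefix A libraries as a covariate, voom weights, and leaving out each library or the 3 in doubt. Averaging the T6(c-) pH 5.9 pairs, and leaving out T6(c-) bic 48 h replicate 1 with the 3 in doubt, were added after the data were seen. Promoters and coordinates come from RefSeq's TAIR10.1.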

Additional observations from a re-analysis of the deposited data

Results flagged for a closer look

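In 7 phosphate genes the response to bic at 48 h differed between the demes in limma's test of the difference itself, given as the log2 fold change of T6(c-) minus that of A1(c+). Over all genes 7.37% passed the adjusted p and 4.15% passed the fold limit too. SPX2, the 1 gene of the described set among them, differed by 0.81 (adjusted p = 0.0347), at 0.82 in T6(c-) against 0.01 in A1(c+). The acid phosphatases differed by 2.47 for PAP17 (adjusted p = 0.03, 2.63 in T6(c-), 0.16 in A1(c+)) and 1.23 for PAP26 (adjusted p = 0.00905, 0.82 and -0.41 in the same order of demes). The vacuolar transporter VPT1 differed by 2.15 (adjusted p = 0.0102, 2.22 in T6(c-) and 0.07 in A1(c+)). Of the lipid genes, PLDP2 differed by 2.25 (adjusted p = 0.0413, 3.11 in T6(c-), 0.86 in A1(c+)), PLDP1 by 1.30 (adjusted p = 0.014, 1.66 and 0.37) and PAH2 by 1.08 (adjusted p = 0.0236, 1.49 and 0.41). In all 7 genes both T6(c-) bic libraries lay above both pH 5.9 libraries of that deme. This adds no support, since the 7 genes were picked from the same libraries. These bic and pH 5.9 libraries did not overlap in 83.6% of all genes. With the T6(c-) pH 5.9 pairs averaged none of the 7 passed, with adjusted p of 0.0878 to 0.176, beside 0.29% of all genes called.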

How the results depend on the processing

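Counts of the 9 genes called moved with the setting as follows, each comparison with its reported count first. A mean of at least 10 CPM removes MGD2, MGD3, PS2 and PHO1;H1 before the fit. Here and in the next paragraph, lower counts under that setting reflect genes that were not tested, where the calls were of these genes. For bic against pH 5.9 in T6(c-) at 48 h (3), the count was 1 with each time alone, with a mean of at least 10 CPM and with the T6(c-) pH 5.9 pairs averaged, 4 without the 3 libraries in doubt, and 1 to 4 when single libraries were left out. In the comparison of bic with pH 8.3 in T6(c-) at 48 h (3), it was 5 without the libraries in doubt, with or without T6(c-) bic 48 h replicate 1, 1 in a fit of only the groups compared, 0 with a mean of at least 10 CPM, and 2 to 5 without single libraries. For pH 8.3 against pH 5.9 at 48 h (0), it was 1 with the prefix A covariate in T6(c-), and 0 to 2 without single libraries in either deme. In A1(c+) at 48 h, bic against pH 5.9 (0) had 1 without the libraries in doubt, with or without T6(c-) bic 48 h replicate 1, and bic against pH 8.3 (0) had 1 without them, 2 without them and that replicate, and 0 to 1 without single libraries. In T6(c-) at 3 h, bic against pH 5.9 (0) had 1 and pH 8.3 against pH 5.9 (0) had 1 without the libraries in doubt, likewise without that replicate too, and only the groups compared gave 1 and 2, while each time alone gave 1 for bic.

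For the difference between the demes' responses to bic at 48 h (0), the count was 2 without the libraries in doubt, 1 without them and T6(c-) bic 48 h replicate 1, 1 with the covariate, with quantile normalization and with no fold limit, and 0 to 1 without single libraries. For pH 8.3 it was 1 with the covariate and 0 to 1 without single libraries at 48 h (0), and 1 in a fit of only the groups compared at 3 h (0). For T6(c-) against A1(c+) at pH 5.9 and 48 h (4), it was 2 with each time alone, with a mean of at least 10 CPM and with pseudocounts of 0.1 and 1 CPM, 0 with the T6(c-) pairs averaged, and 1 to 6 without single libraries. At 3 h (1), it was 3 without the libraries in doubt, 2 also without T6(c-) bic 48 h replicate 1, 2 with only the groups compared, each time alone or the covariate, 0 with a mean of at least 10 CPM, a pseudocount of 1 CPM, voom weights or the T6(c-) pairs averaged, and 0 to 2 without single libraries. For 48 h against 3 h in A1(c+) (1), it was 2 without the libraries in doubt, also without that replicate, and with the covariate, 3 with TMM factors and with no fold limit, 4 with quantile normalization, and 0 to 2 without single libraries. In T6(c-) (1), it was 3 without the libraries in doubt, also without that replicate, with the covariate and with only the groups compared, and 0 with a mean of at least 10 CPM, a pseudocount of 1 CPM or the T6(c-) pairs averaged.

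Signs turned mostly at pH 8.3 and 48 h. Against pH 5.9 in T6(c-), SPX1 (1.68) was -0.18 without the libraries in doubt and -0.18 to 3.54 without single libraries, GDPD1 (1.18) was -0.20 and -0.20 to 2.57, and -0.10 with the covariate, and MGD3 (1.00) was -0.12 with the covariate. Under bic against pH 8.3 in T6(c-), SPX1 (-0.14) was 1.71 without the libraries in doubt, 1.49 without T6(c-) bic 48 h replicate 1 as well, 1.14 with the covariate and -2.00 to 1.71 without single libraries, and GDPD1 (0.83) was -0.55 to 2.22. In A1(c+), PS2 (-0.33) was 1.30 without the libraries in doubt, 0.41 with the covariate and -1.96 to 1.30 without single libraries. The deme difference of MGD3 at pH 8.3 (1.12) was -0.19 to 2.42. The check of demes gave 69.7% in place of 84.4% for A1(c+) pH 8.3 48 h replicate 1 when genes separated by over 3 were used. With those genes T6(c-) bic 48 h replicate 1, not counted as in doubt, was lower, at 62.6%. The cause was not tested.

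The replicate numbers did not pair the samples, since the deviations of same-numbered libraries correlated between -0.42 and 0.44 over 66 pairs of groups, with 10 over 0.1 and 16 under -0.1. With the replicate number as a block, 2 of the 9 genes were called under bic in T6(c-) at 48 h, with GDPD1 at an adjusted p of 0.0553, and no other count of the 9 genes moved. The 18 calls among 47 other phosphate genes in that comparison were 14 with TMM, quantile normalization or the T6(c-) pairs averaged, 16 with voom weights, and 13 to 19 without single libraries. Calls with 2 replicates per group rest on the pooled spread.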
